A study of Mus musculus with 4 samples.

Results

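Mir17hg is the host transcript of the miR-17-92 microRNA cluster. It was examined in sorted 4T1 cells with Myc, Mycn and 6 long noncoding RNAs (Malat1, Neat1, H19, Gas5, Snhg1 and Snhg12), 9 genes of the 20197 in the table. Mir17hg had been picked from these same measurements because its level was more than 2-fold lower in cells of high mitochondrial membrane potential (MMP), so its difference is described here and not tested. Myc and Mycn were added as known regulators of the cluster, and the other 6 genes as well known long noncoding RNAs. Their genes were found by symbol, all 9 were in the table, and 8 of the 9 averaged 10 or more normalized reads over the 4 libraries.

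4T1 is a mouse mammary tumor line that stands for triple negative breast cancer in the study. Unmodified cells took up MitoSpy Red at 20 nM, a dye that enters mitochondria in proportion to their potential, and the brightest 5% (high MMP) and dimmest 5% (low MMP) were sorted. RNA from 100000 cells per sample was sequenced after poly(A) selection in 4 libraries, 2 for each group, from this 1 line, with no other treatment. Values are normalized reads, that is reads of a gene after each library was scaled to 20000000 reads on genes, and p-values measure the spread between these samples. The study counts the samples of a group as independent experiments or tumors, while the labels give only replicate numbers.

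The libraries held 22591970 to 26395015 reads on genes, and 18643 to 18854 genes were above 0 in each. Markers of the labelled cell type were present, with all 8 mammary epithelial markers (keratins, Epcam, Cdh1, claudins) averaging over 10, at 0.269% to 0.361% of reads in sum. Of the leukocyte markers 3 of 8 were in the table, with a summed share of at most 0.00078%, 2 of 5 endothelial markers were, both averaging under 10, and none of the 5 erythroid markers was. Of 6 fibroblast markers 4 were in the table, with a summed share of 0.0017% and 0.0020% in high MMP against 0.0029% and 0.0031% in low MMP libraries, and the part of such cells in the differences below was not tested. Genes encoded in mitochondrial DNA took 1.27% of reads in high MMP replicate 1 and 2.02% to 2.24% in the other libraries. Replicates differed more in the high MMP group than in the low MMP group, with an SD of the log2 difference between replicates of 0.40 against 0.29 over the 12902 genes that averaged 10 or more.

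A microRNA host gene is transcribed as a long precursor from which hairpins are cut and then processed into mature microRNAs, which pair through their seed with sites in 3' UTRs and lower the output of those mRNAs. The miR-17-92 cluster is known as an oncogenic cluster that promotes proliferation and survival, and MYC and E2F proteins bind its promoter. Poly(A)-selected RNA holds the host transcript and not the mature microRNAs, so what was measured is polyadenylated host RNA, and levels of the microRNAs were not analysed here.

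In the GENCODE M21 annotation of build GRCm38, Mir17hg (ENSMUSG00000089726) lies at chr14:115042879-115046727 on the plus strand as a lincRNA of 2 exons with 3536 exonic bases. All 6 hairpins lie inside exon 2, starting 792 to 1548 bases from the annotated start, and none of the 6 microRNA genes had a row of its own in the table. The main mature products are shown because their seeds decide which mRNAs they can pair with. They come from RefSeq (GRCm38.p6), are written 5' to 3', and have the seed, bases 2 to 8, in capitals. They fall into 4 seed groups, with miR-17-5p and miR-20a-5p sharing one and miR-19a-3p and miR-19b-3p sharing another.
miR-17-5p: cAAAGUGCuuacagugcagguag
miR-20a-5p: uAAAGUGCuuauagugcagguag
miR-18a-5p: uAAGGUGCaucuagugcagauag
miR-19a-3p: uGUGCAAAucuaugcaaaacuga
miR-19b-3p: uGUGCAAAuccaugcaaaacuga
miR-92a-3p: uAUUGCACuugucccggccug

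**Figure D1:**
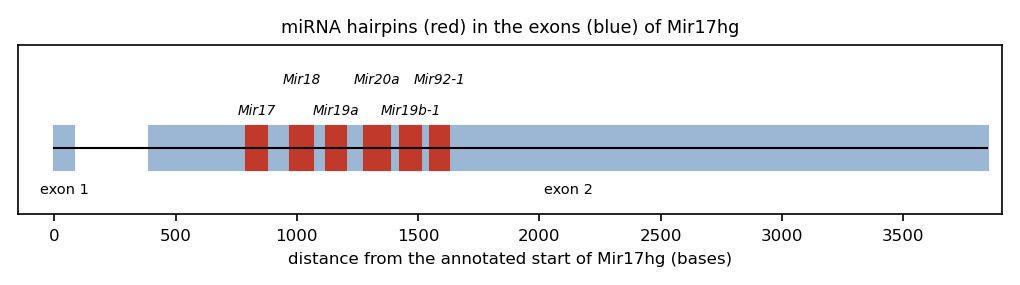
Map of Mir17hg, with distance in bases from its annotated start on the horizontal axis, the 2 exons in blue and the 6 microRNA hairpins in red. All hairpins lie in exon 2, which is 3457 bases long, and exon 1 of 79 bases holds none.

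Mir17hg stood at 162 and 216 normalized reads in high MMP replicates 1 and 2 and at 461 and 487 in low MMP replicates 1 and 2. Both high MMP values lay far below both low MMP values, and the gap between groups was wider than the gap within either. The means were 189 ± 38.0 (SD, n = 2) and 474 ± 18.2 (SD, n = 2), so that high MMP cells held 39.9% of the low MMP level, 2.51-fold less. On the log2(value + 1) scale the difference was -1.34 with an SE of 0.17, and the 4 possible pairs of a high with a low MMP library gave -1.09 to -1.58. These values rest on 214 and 258 reads in high MMP cells against 529 and 550 reads in low MMP cells. The 95% Poisson intervals, which cover counting error only, ran from 186 to 245 and from 227 to 291 reads in high MMP cells and from 485 to 576 and from 505 to 598 reads in low MMP cells, so counting error was small beside the difference.

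Because these values chose the gene, no test of them is given. Among 9999 genes averaging 100 or more normalized reads, 7 (0.07%) had a mean log2 difference of -1 or lower, Neat1 among them. Mir17hg was another of the 7, but the rule that picked it put it there, so this share is no support for its difference. The genes just inside that 2-fold limit were Xndc1 at -1.06 and Neat1 at -1.04, and those just outside were Zgrf1 at -0.96 and Lpin1 at -0.94. In bulk samples, fewer cells that express a gene and less RNA of it per cell cannot be told apart.

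The nearest genes averaging 1 or more normalized reads on each side, both far away, did not share this difference. Tpm3-rs7, 1726125 bases away, differed by 0.06 and Tgds, 3065184 bases away on the other side, by -0.02. The pattern most like that of Mir17hg over the 4 libraries, by Euclidean distance between centred log2 values among 9998 other genes averaging 100 or more, was that of Gm21781, a lincRNA gene, at a distance of 0.300 against a median distance of 1.36. It stood at 74.3 and 80.3 normalized reads in high MMP cells and at 169 and 171 in low MMP cells. Next came Xndc1 (0.409), Zgrf1 (0.424), 3110039I08Rik (0.428) and Papln (0.443).

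Genes of the cell cycle also differed between the sorted groups, and their values stand here beside those of Mir17hg. A list of 43 S-phase genes took 0.588% and 0.500% of reads in high MMP replicates 1 and 2 against 0.696% and 0.708% in the low MMP replicates, while 52 G2/M genes took 1.29% and 1.34% against 0.993% and 1.02%. The high and low MMP libraries were thus apart on both sums, in opposite directions. The median log2 difference was -0.35 over the S-phase genes, led by Ung at -1.90 and Cdc6 at -1.43, and 0.31 over the G2/M genes, led by Ube2c at 1.30 and Nusap1 at 1.22, against -0.03 over all genes. The part of cell cycle composition in the level of Mir17hg was not tested.

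MYC is a transcription factor that with its partner MAX drives genes of growth, ribosome production and metabolism, and Myc had the highest level per length of the 9 genes. Myc (ENSMUSG00000022346, chr15:61985391-61990374) stood at 5241 and 7404 normalized reads in high MMP cells and at 8916 and 6247 in low MMP cells. The groups overlapped, with the highest and the second lowest value both in low MMP cells and the lowest in high MMP replicate 1. The log2 difference was -0.26 with an SE of 0.26, with an adjusted p of 0.845 in limma, and it ran in opposite directions in the same-numbered pairs, at -0.77 for replicate 1 and 0.25 for replicate 2. Pvt1, the noncoding gene 47612 bases from Myc, differed by -0.09 and also overlapped, at 328 and 382 normalized reads in high MMP cells against 363 and 390.

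Mycn, the neuronal paralog of Myc, was not detectable at this depth. The gene (ENSMUSG00000037169, chr12:12936093-12941914) had 1 read in replicate 1 and 0 in replicate 2 of each group, all under the 3 reads that a count of 0 allows as a one-sided 95% limit, so no fold is given. 

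In the whole table limma made 0 calls among 20197 genes (0%) at an adjusted p under 0.05, 2011 genes had an unadjusted p under 0.05, and edgeR without a block also made none. DESeq2 on the recovered reads called 118 of 11974 genes (0.985%). Leaving Mir17hg aside, none of the other 8 genes was called by any of these tools, and Neat1 alone had an unadjusted p under 0.05 in limma (0.0396). For gene groups, the counts below are therefore of genes whose 2 groups do not overlap, which over the 12902 genes averaging 10 or more happened for 23.7% with high MMP lower and for 14.3% with high MMP higher.

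Genes of the MYC and MAX network, which compete for or share MAX and related partners, were mixed. Of 12 averaging 10 or more, Myc included, 3 (25%) were higher in both high MMP libraries and 3 (25%) were lower, with a median log2 difference of -0.09, and none was called by limma or DESeq2. The widest non-overlapping difference was that of Mxd3, an antagonist of MYC, at 265 and 226 normalized reads in high MMP cells against 168 and 222, followed by Mlx, the MAX-like partner, at 972 and 860 against 729 and 824. Max itself stood at 1866 and 1856 in high MMP cells against 1624 and 1741.

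Well known MYC targets differed little. All 31 of the list were measured, 8 (25.8%) were higher and 4 (12.9%) lower without overlap, the median log2 difference was 0.01, and all lay between -0.34 and 0.20. The ends of that range were Tfrc, the transferrin receptor, with 8680 and 9721 normalized reads in high MMP cells against 11564 and 11686, and Rrs1, a ribosome assembly factor, with 3423 and 3198 against 2894 and 2852. Neither was called by limma or DESeq2.

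Targets known for the miR-17-92 microRNAs were looked at next, since the seeds above pair with sites in target mRNAs. All 26 listed genes were measured, 7 (26.9%) were higher and 6 (23.1%) lower without overlap, and the median log2 difference was -0.01, near the -0.03 of all genes. The genes furthest from 0 were lower in high MMP cells, as Mir17hg was. E2f2 stood at 268 and 274 normalized reads in high MMP cells against 486 and 442 (log2 difference -0.77, SE 0.10), and E2f1 at 764 and 647 against 1101 and 1206 (-0.71, SE 0.12). Both had an adjusted p of 0.472 in limma and were 2 of the genes called by DESeq2, and both are S-phase transcription factors that also belong to the family bound at the cluster's promoter. The other 6 genes of the E2F family lay between -0.15 and 0.21. In the other direction Ccn2, a matricellular protein, was furthest, at 5926 and 8558 normalized reads in high MMP cells against 5799 and 5262, and Tgfbr2, the type II receptor of TGF-beta, stood at 3503 and 3644 against 2795 and 2983 (0.31, SE 0.08, adjusted p 0.472 in limma).

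An 8-base match to a seed, that is the complement of bases 2 to 8 followed by an A, was searched on the sense strand in the longest annotated 3' UTR of each gene. The sites searched were GCACTTTA for miR-17-5p and miR-20a-5p, GCACCTTA for miR-18a-5p, TTTGCACA for the miR-19 pair and GTGCAATA for miR-92a-3p. Of the 26 listed targets 16 had at least 1 such site and 10 had none, E2f1 and E2f2 among the latter. Bcl2l11, which encodes the pro-apoptotic protein BIM, had sites for 2 seeds, as did the repressor gene Zbtb4. Their sites are shown in their context, from the GENCODE M21 transcripts and on the strand of the mRNA, with the matching bases in capitals. They lie on the plus strand of GRCm38 at chr2:128160438-128160459 and chr2:128162435-128162456 for Bcl2l11, and at chr11:69781257-69781278 and chr11:69780514-69780535 for Zbtb4.
Bcl2l11, miR-17-5p and miR-20a-5p: tctccccgactggaGCACTTTA
Bcl2l11, miR-92a-3p: ttgccactgtacctGTGCAATA
Zbtb4, miR-17-5p and miR-20a-5p: aaatcttgtttctgGCACTTTA
Zbtb4, miR-18a-5p: ttgcctccaaaataGCACCTTA

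These genes were named for their sites. Bcl2l11 stood at 1357 and 1116 normalized reads in high MMP cells against 1598 and 1821 in low MMP cells, without overlap and lower in high MMP cells (-0.47, SE 0.14, adjusted p 0.472 in limma). Zbtb4 stood at 413 and 469 against 411 and 443, a difference of 0.04 with overlapping groups.

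Over all 11326 genes averaging 10 or more and an annotated 3' UTR, the median log2 difference was -0.03. It was -0.02 for the 521 genes (4.6%) with the GCACTTTA site, -0.01 for the 190 (1.68%) with GCACCTTA, -0.01 for the 689 (6.08%) with TTTGCACA and -0.03 for the 325 (2.87%) with GTGCAATA. Genes with any of these sites, 1576 in all, were higher in both high MMP libraries in 18.5% of cases and lower in 21.3%, and the 9750 with none in 14.3% and 23.5%. The UTRs of the first set were longer, with a median of 2414 against 1047 bases, and the part of UTR length in these shares was not tested. A match of letters is not a proven site of binding.

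**Figure D2:**
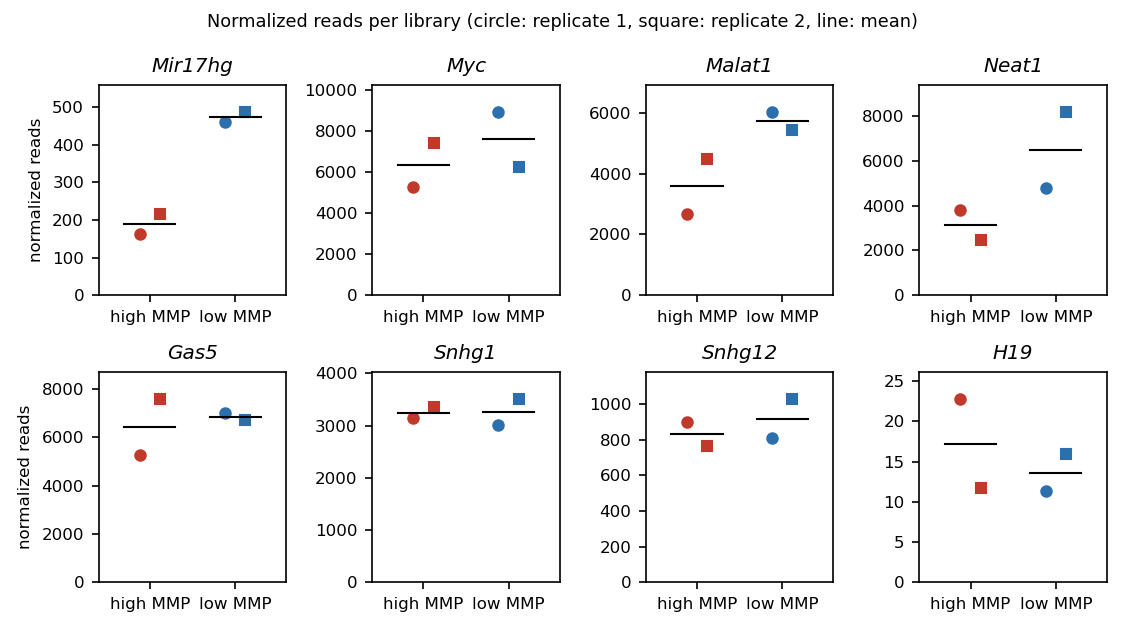
Normalized reads (vertical axes, each from 0) of the 8 genes averaging 10 or more, in high MMP (red) and low MMP (blue) cells, with circles for replicate 1, squares for replicate 2 and lines for the means. Mir17hg, Malat1 and Neat1 have both high MMP points below both low MMP points, and the other 5 genes overlap.

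Malat1 and Neat1 are nuclear RNAs of neighbouring genes, 22036 bases apart on the minus strand of chromosome 19. MALAT1 gathers in nuclear speckles, where splicing factors are stored, and NEAT1 is the scaffold on which paraspeckles form. The values of both are of poly(A)-selected RNA counted per gene. Isoforms and RNA without a poly(A) tail were not analysed, so the values are not levels of the scaffold itself. Malat1 (ENSMUSG00000092341, chr19:5795690-5802672) stood at 2691 and 4474 normalized reads in high MMP cells and at 6036 and 5459 in low MMP cells. The high MMP values were both below the low ones, with replicate 1 the lowest. The high MMP mean of 3582 ± 1261 (SD, n = 2) was 62.3% of the low MMP mean of 5747 ± 408 (SD, n = 2). The log2 difference of -0.73 with an SE of 0.27 had an adjusted p of 0.504 in limma and 0.129 in DESeq2. Without high MMP replicate 1, the library with the low share of mitochondrially encoded RNA, it shrank to -0.36.

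Neat1 (ENSMUSG00000092274, chr19:5824708-5845478) stood at 3786 and 2441 normalized reads in high MMP cells and at 4776 and 8176 in low MMP cells. Again both high MMP values were below both low ones, but here replicate 2 was the lowest of the high MMP libraries, and the 2 low MMP libraries were far apart. The high MMP mean of 3114 ± 951 (SD, n = 2) was 48.1% of the low MMP mean of 6476 ± 2404 (SD, n = 2). The log2 difference of -1.04 with an SE of 0.35 had an adjusted p of 0.472 in limma and 0.830 in DESeq2, and ranged from -0.34 to -1.74 over same-numbered pairs. The values of this gene thus differed widely within both groups.

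Among the other genes averaging 10 or more, Mir17hg aside, 2 of 7 (28.6%) did not overlap and were lower in high MMP cells, a share near the 23.7% of all genes. Frmd8, 4224 bases from Neat1, differed by 0.10. The most similar patterns to that of Malat1 were those of Notch1 (distance 0.118), Thbs3 (0.118) and Tyro3 (0.153), against a median distance of 0.893.

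Genes of the proteins of both bodies differed by less than their RNAs. Of 13 paraspeckle proteins 5 (38.5%) were lower and 1 higher without overlap, with a median log2 difference of -0.07, and none was below -0.29. That end was held by Cpsf6, at 3601 and 3387 normalized reads in high MMP cells against 4181 and 4353, with Tardbp next at 10076 and 9619 against 11853 and 11748. Of 10 speckle proteins 4 (40%) were lower and 0 higher, with a median of -0.12 and Srsf4 furthest, at 1697 and 1938 against 2163 and 2189. None of these was called by limma or DESeq2.

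**Figure D3:**
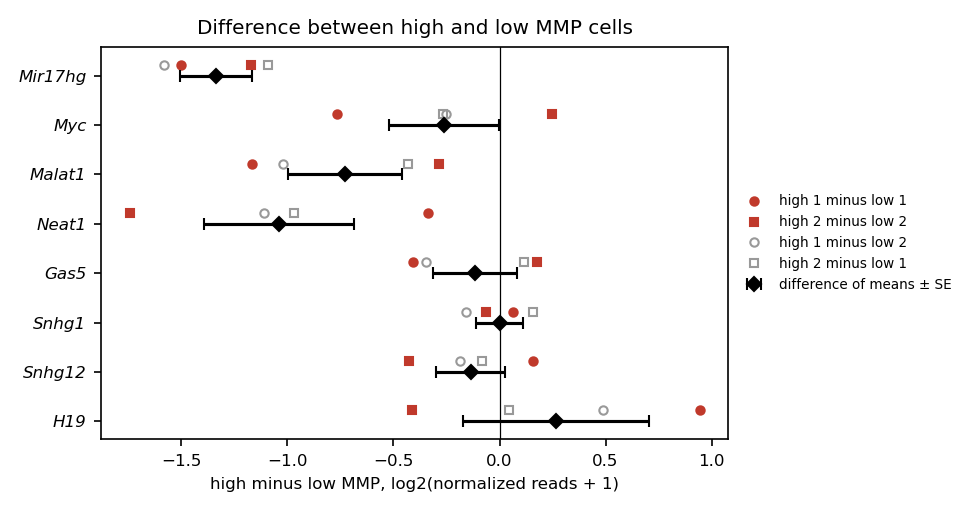
High minus low MMP difference in log2(normalized reads + 1) for 8 genes, with black diamonds for the difference of means, bars for its SE from limma, filled red marks for same-numbered pairs and open marks for the crossed pairs. Mir17hg lies between -1.58 and -1.09 in every pair, while the marks of Myc, Gas5, Snhg1, Snhg12 and H19 lie on both sides of 0.

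Gas5, Snhg1 and Snhg12 are host genes of small nucleolar RNAs, which sit in their introns and guide the modification of ribosomal RNA, and their spliced transcripts are targets of nonsense-mediated decay. None of the 3 differed beyond its spread. Gas5 (ENSMUSG00000053332, chr1:161034422-161038539) stood at 5260 and 7567 normalized reads in high MMP cells and at 6983 and 6693 in low MMP cells, so that both extremes were high MMP libraries. Snhg1 (ENSMUSG00000108414, chr19:8723475-8726443) stood at 3145 and 3348 against 3004 and 3504, with the high MMP values inside the low ones. Snhg12 (ENSMUSG00000086290, chr4:132308623-132311024) stood at 902 and 763 against 808 and 1027, again overlapping.

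The log2 differences were -0.12 (SE 0.20) for Gas5, 0.00 (SE 0.11) for Snhg1 and -0.13 (SE 0.16) for Snhg12, with adjusted p of 0.932, 1.00 and 0.871 in limma. Gas5 overlaps Zbtb37 on the other strand, and whether counting used strand is not given in the sources used here. Genes alike to Gas5 in pattern were Rai1 (distance 0.0210), Chsy1 (0.0251) and Kidins220 (0.0276), against a median of 0.423. Slc3a2, 106 bases from Snhg1, differed by -0.02, and Trnau1ap, 739 bases from Snhg12, by -0.06.

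Their differences were among the smaller ones of their class. Of 22 listed snoRNA hosts 16 were in the table, and 9 of those (56.3%) were lower and 0 higher in high MMP cells without overlap, with a median log2 difference of -0.25 against -0.03 for all genes. Dancr was the furthest, at 149 and 140 normalized reads in high MMP cells against 251 and 293 (-0.91, SE 0.13), and was the single host called by DESeq2, with an adjusted p of 0.472 in limma. Snhg10 followed, at 16.7 and 9.21 against 21.8 and 26.6 (-0.90, SE 0.39). The list's median stayed below 0 with each library left out, between -0.41 and -0.21. Of the 10 factors of nonsense-mediated decay, 2 were higher and 2 lower without overlap, with a median of -0.05 and with Smg8 (0.17) and Smg6 (0.12) the furthest of the non-overlapping ones.

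Hosts of microRNAs gave similar counts. Of 11 averaging 10 or more, Mir17hg included, 5 (45.5%) were lower and 1 (9.09%) higher without overlap, with a median of -0.30. Mir17hg, which was picked for its lower level, counts among those 5, so this share and median are not free of that choice. Dleu2, the host of miR-15a and miR-16-1, stood second to Mir17hg, at 105 and 116 normalized reads in high MMP cells against 156 and 191 (-0.64, SE 0.16, adjusted p 0.472 in limma). Mcm7, named after its values were seen because its introns hold a cluster related to miR-17-92, stood at 6039 and 4480 against 6835 and 6726 (-0.38, SE 0.17). It encodes a subunit of the replicative helicase.

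Among 8 other long noncoding RNAs averaging 10 or more, 6 (75%) were lower and 0 higher without overlap, and the median was -0.24. Kcnq1ot1, an imprinted antisense RNA, was the furthest at 66.7 and 95.4 normalized reads in high MMP cells against 139 and 151 (-0.85, SE 0.22), and Ftx, a noncoding gene of the X inactivation center, was at 37.9 and 50.2 against 59.3 and 61.1. None was called by limma or DESeq2, and the median was -0.12 without high MMP replicate 1.

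The same tilt was seen over annotated biotypes, a split made after the values were seen. Of 537 lincRNA, antisense and processed-transcript genes averaging 10 or more, 216 (40.2%) were lower and 39 (7.26%) higher without overlap, with a median of -0.23, against 23.2% and 14.8% and a median of -0.03 for 11364 protein-coding genes. Quantile normalization moved the noncoding median to -0.12 and median-of-ratios scaling moved it to -0.19. The median of all genes moved as well, from -0.035 to 0.0002 with quantile normalization and to 0.006 with median-of-ratios scaling. Within these classes the noncoding genes named here ranged from Mir17hg at -1.34 to Snhg1 at 0.00 and H19 at 0.27.

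**Figure D4:**
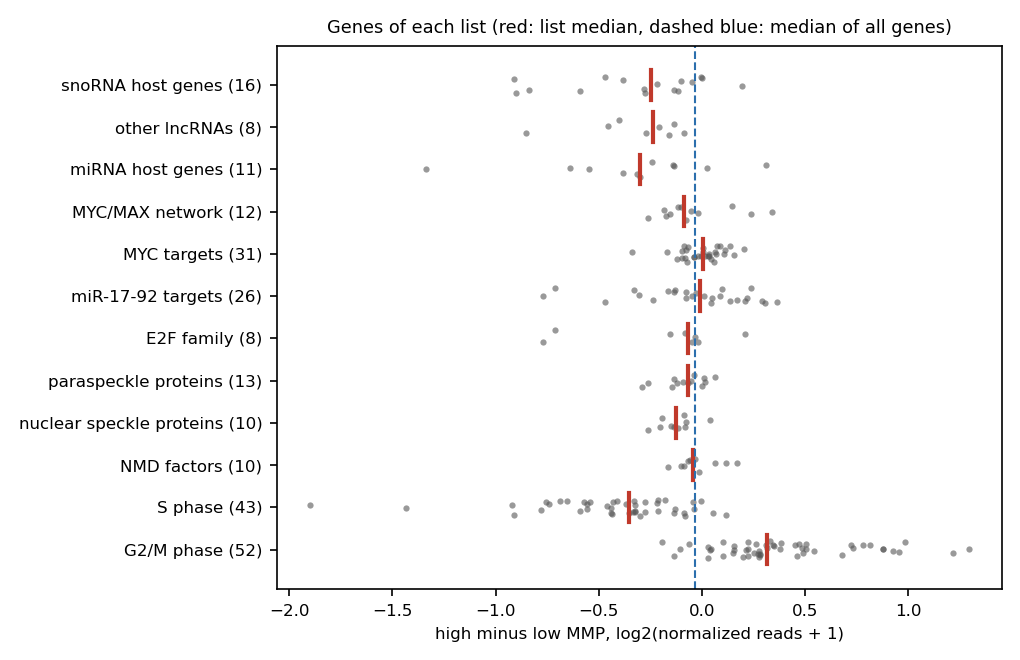
High minus low MMP difference in log2(normalized reads + 1) for each gene (grey points) of 12 lists, with the number of genes averaging 10 or more in brackets, list medians in red and the median of all genes as a dashed blue line. The medians of snoRNA hosts (-0.25), other long noncoding RNAs (-0.24) and microRNA hosts (-0.30, Mir17hg included) lie left of the line at -0.03. Those of MYC targets (0.01) and miR-17-92 targets (-0.01) lie close to it.

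H19, an imprinted noncoding RNA of fetal tissues that is also the host of miR-675, was barely present. H19 (ENSMUSG00000000031, chr7:142575529-142578143) stood at 22.7 and 11.7 normalized reads in high MMP cells and at 11.3 and 15.9 in low MMP cells, from 30, 14, 13 and 18 reads, and the groups overlapped. The log2 difference of 0.27 with an SE of 0.44 had an adjusted p of 0.927 in limma. Of 11 genes of its imprinted network, H19 included, 6 were in the table, and 1 of the 5 averaging 10 or more did not overlap, Igf2r, at 2839 and 4734 normalized reads in high MMP cells against 5310 and 4828.

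Per length, in RPKM (reads per kilobase of exon, scaled to library size) averaged over the 4 libraries, the order was Myc at 128 ± 29.1 (SD, n = 4), Gas5 at 88.1 ± 13.0, Snhg1 at 54.7 ± 3.71, Malat1 at 33.4 ± 10.5, Snhg12 at 18.2 ± 2.43, Neat1 at 11.5 ± 5.89, Mir17hg at 4.69 ± 2.35, H19 at 0.314 and Mycn at 0.006. In this order the ranges over libraries overlapped between Myc and Gas5, Malat1 and Snhg12, Snhg12 and Neat1, and Neat1 and Mir17hg, and not between the other neighbours down to H19. The lengths are those of GENCODE M21 and may differ from the gene models the authors counted on. For Neat1 the length was 20771 bases, all its annotated exons. Which isoform its reads came from was not analysed, so its place in this order depends on that length. On this scale Mir17hg was at 2.67 in high MMP cells and 6.70 in low MMP cells, a low level beside the other RNAs described except H19 and Mycn.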

How the data were processed

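RNA-seq of sorted 4T1 cells was analysed in 4 libraries, grouped by their titles. The authors used STAR on mouse build GRCm38 (mm10), obtained gene-level counts (HTSeq is named in the submitters' processing notes) and divided by library totals. Which annotation release was used, and how reads matching several genes were treated, is not given in the sources used here. The deposited values are a normalized signal per gene, each column summing to 20000000. Whole reads were recovered for 100% of values (tolerance 0.1 reads). The table held 20197 genes, each above 0 in at least 2 samples, and 19993 identifiers matched GENCODE M21.

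log2(value + 1) was tested with limma 3.58.1 (trend, no block) in R 4.3.3, with Benjamini-Hochberg adjustment over all genes and a threshold of 0.05. A fold on this scale understates the change of low genes. edgeR 4.0.16 and DESeq2 1.42.0 on recovered reads, other pseudocounts, filters and scalings, a replicate block and leaving out each library were alternatives. The genes and lists were chosen with earlier results of these data known. Named besides the 9 genes are, per list, the 2 genes of largest difference, averaging 10 or more, among those whose groups do not overlap. The nearest genes averaging 1 or more, the most similar patterns and the genes at the 2-fold limit are named as well. Genes outside this rule (Max, Ccn2, Tgfbr2, Bcl2l11, Zbtb4, Mcm7) were named after their values were seen. Some genes that meet the rule are not reported here.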

Additional observations from a re-analysis of the deposited data

How the results depend on the processing

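With 2 libraries per group, single differences are imprecise. Mir17hg was picked for being lower in these same libraries, so its sign under the 17 alternatives is no test of it. Its log2 difference lay between -1.54 and -1.13 with a library left out, which describes its spread only. limma made 0 calls under every pseudocount, filter, scaling and left-out library. DESeq2 called 118 genes, and edgeR with the replicate block called 106, among them Neat1, 1 of the 8 tested genes (adjusted p 0.00110 in edgeR). limma with the block called 0. The study counts independent experiments, but neither it nor the labels tie the replicate numbers to them, and centred values of libraries with the same number correlated at -0.421 over 12902 genes. edgeR with crossed numbers as the block, chosen after seeing the data, called 733 genes and 2 of the 8, and limma called 0.

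With a library left out, Myc ranged from -0.52 to -0.0041, Malat1 from -1.09 to -0.36 and Neat1 from -1.43 to -0.65, while signs turned for Gas5 (-0.38 to 0.15), H19 (-0.18 to 0.72), Snhg1 (-0.11 to 0.11) and Snhg12 (-0.31 to 0.0377). The cause was not tested. The medians of snoRNA hosts, other long noncoding RNAs and microRNA hosts (Mir17hg included) stayed below 0 under every alternative. Those of the MYC network and of miR-17-92 targets lay on both sides of 0. Depth limits Mycn and H19 most.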
